A study of Mus musculus with 6 samples.

Results

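The 9 genes described here encode 5 receptors of the tumour necrosis factor (TNF) receptor family, *Tnfrsf1a*, *Tnfrsf1b*, *Tnfrsf4*, *Tnfrsf9* and *Tnfrsf18*, and 4 TNF receptor-associated factors, *Traf1*, *Traf2*, *Traf5* and *Traf6*. They were chosen by name and found through their Ensembl gene identifiers (IDs), 9 of the 54446 gene IDs listed for each library. All 9 passed the filter on low counts and were tested among 15615 genes. The libraries came from regulatory T (Treg) cells of wild-type mice, sorted from subcutaneous tumours of the B16F10 mouse melanoma line as live CD45+ CD4+ cells that carried a Foxp3-GFP reporter. RNA recovered with an antibody to YTHDF2 (YTHDF2 IP, 3 libraries) was compared with RNA of the unfractionated lysate (Input, 3 libraries, no antibody). The Input was 10% of the lysate. All 6 libraries carry the same genotype and tumour, and their titles name no treatment. No group with a different treatment, no YTHDF2-deficient group and no precipitation with a control antibody was analysed here. Enrichment is thus the level in the IP set against that in the Input. Nothing in the labels tells whether replicates are different mice, pools or repeats of one preparation, and p-values cover the spread between libraries alone, part or all of which may be technical.

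YTHDF2 is a cytoplasmic reader of N6-methyladenosine (m6A), a methyl mark on mRNA, and it promotes the decay of the transcripts it binds. Receptors of the TNF family have no enzymatic activity of their own. After ligand binding most of them recruit TRAF proteins, adaptors that carry the signal to kinases and ubiquitin ligases and so to the transcription factor NF-kB. Treg cells in tumours are known for high levels of several of these receptors, which support their expansion and survival. *Tnfrsf1a* encodes TNFR1, the TNF receptor with a death domain, and *Tnfrsf1b* encodes TNFR2, the TNF receptor without one that is prominent on Treg cells. *Tnfrsf4*, *Tnfrsf9* and *Tnfrsf18* encode the costimulatory receptors OX40, 4-1BB and GITR. TRAF1 lacks the RING domain that the other TRAF proteins have and forms heteromers with TRAF2. TRAF2 brings the cellular inhibitor of apoptosis proteins to the receptors. TRAF5 is a close relative of TRAF2, and TRAF6 serves CD40 and the interleukin-1 and Toll-like receptors.

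One adaptor mRNA, *Traf1*, was enriched in the YTHDF2 IP by 1.95-fold, and one receptor mRNA, *Tnfrsf18*, was depleted to 0.488 of its Input level. The other 7 members did not pass the test, which treated the libraries as unpaired. With the replicate number as a block, 5 members were called, 1 enriched and 4 depleted, where 12.3% of all tested genes were called. All 5 receptors had a fitted fold change below 0 on the log2 scale, in the main setting and in the 16 other settings tried. These settings reuse the same 6 libraries, and where 0 lies depends on the scaling. Of all 15615 tested genes 7193 lay above 0 in the main setting, so most did not. Of the 4 adaptors 3 lay above 0, of which *Traf6* turned below 0 in 4 of the other settings, and *Traf2* lay below 0 and turned above it in 3. The calls rest on edgeR's quasi-likelihood test with Benjamini-Hochberg adjustment over all 15615 genes and a threshold of 0.05. Over all tested genes 4.33% were enriched and 6.11% were depleted, or 10.4% in either direction. Among the 2151 abundant genes, those averaging at least 100 CPM (read counts scaled to a common library size), 20.8% were enriched and 18.9% were depleted, and 5 of the 9 members belong to this abundant group. Of these 5, 1 was enriched and 1 was depleted. That number is close to the share among abundant genes, so the count of calls by itself is not a result about the family. The 5 members called with the block were these same 5 abundant ones. The share of abundant genes called in that fit was not computed, so its count is not read as a result about the family either. By sign alone, 1252 of the 2151 abundant genes lay above 0.

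The genes lie on 4 chromosomes in the mouse build GRCm38, positions from RefSeq (GRCm38.p6). On chromosome 4 are 4 receptor genes: *Tnfrsf1b* (ENSMUSG00000028599, 145212368 to 145246870), *Tnfrsf9* (ENSMUSG00000028965, 150920155 to 150946104), *Tnfrsf4* (ENSMUSG00000029075, 156013595 to 156016613) and *Tnfrsf18* (ENSMUSG00000041954, 156026322 to 156028894). *Tnfrsf4* and *Tnfrsf18* lie on the same strand, with 9708 bases between them. *Tnfrsf1a* is on chromosome 6 (ENSMUSG00000030341, 125349723 to 125362483). *Traf1* (ENSMUSG00000026875, 34941750 to 34961812), *Traf2* (ENSMUSG00000026942, 25517982 to 25546940) and *Traf6* (ENSMUSG00000027164, 101678420 to 101701668) are on chromosome 2, and *Traf5* (ENSMUSG00000026637, 191997203 to 192092599) is on chromosome 1. RefSeq lists an overlapping gene for 5 members: the protein-coding *Sdf4* at *Tnfrsf4*, a long noncoding RNA at *Tnfrsf18* and at *Traf1*, a pseudogene at *Traf2*, and a microRNA and a pseudogene at *Traf5*. The strand setting of the counting is not given in the sources used here. For these members it is thus not known whether reads in the overlap were counted for them, for the other gene or for neither.

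Gene-assigned reads numbered 6847731 to 8465453 per IP library and 10029733 to 14704617 per Input library, and the members took 19361 to 24527 and 36326 to 39291 of them. The members thus held 0.287% ± 0.0509 of gene-assigned reads in the IP and 0.313% ± 0.0570 in the Input (SD, n = 3 each). The most thinly covered member was *Tnfrsf1a*, with 54 to 205 reads in an IP library and 148 to 347 in an Input library. Every other member had at least 247 reads in each IP library and at least 381 in each Input library. Gene IDs with a read numbered 14200 to 19991 per IP library and 26250 to 33344 per Input library, with the fewest in IP replicate 3. Levels below are CPM scaled with TMM factors. They are not corrected for transcript length, so they are compared between libraries and not between genes. Between bulk libraries, fewer cells of a type and less RNA per cell cannot be told apart. Whether the sorted cells carry the defining Treg transcripts was not checked here, because no table paired other gene IDs with names.

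**Figure D1:**
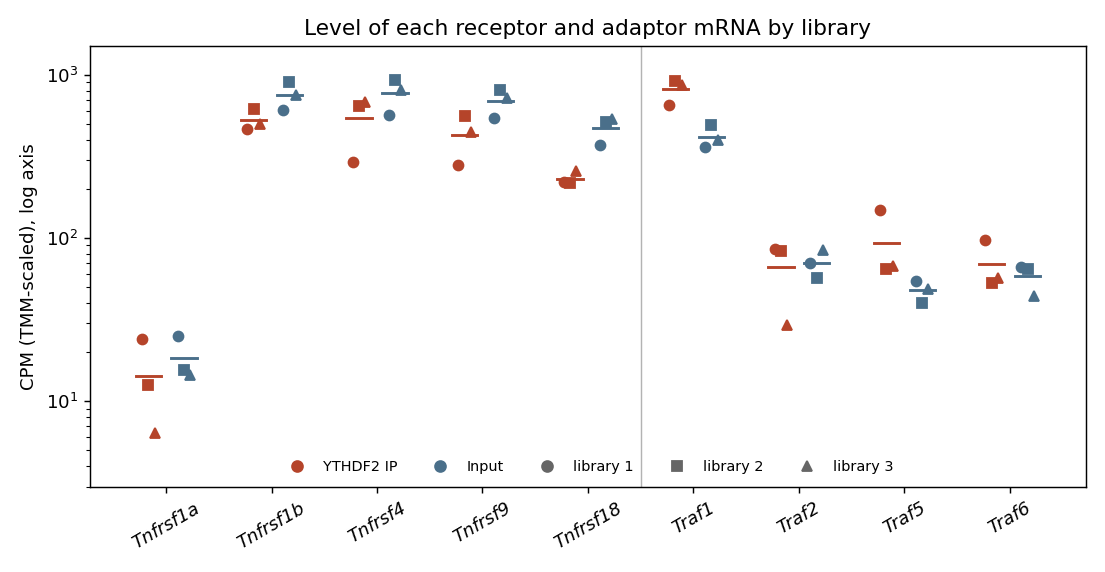
Level of each member in each library, in TMM-scaled CPM on a log axis, with the YTHDF2 IP on the left of each pair and the Input on the right; symbols mark the replicate number and bars the mean of 3 libraries. The groups separate for *Tnfrsf18*, with 3 IP points at 216 to 256 CPM below 3 Input points at 370 to 536 CPM, for *Traf1* and for *Traf5*, and overlap for the other 6 genes; over all tested genes the groups separate for 36.5%.

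Of the receptors, *Tnfrsf18* was the one depleted in the IP. It had 221, 216 and 256 CPM in the IP libraries, against 370, 512 and 536 CPM in the Input libraries. Every IP library lay below every Input library, and the IP values varied less among themselves than the Input values (coefficient of variation 9.39% and 18.9%). The level averaged 231 ± 21.7 CPM in the IP and 473 ± 89.5 CPM in the Input (SD, n = 3 each). On the log2 scale the change was -1.03 ± 0.18 (SE; adjusted p = 0.00627, edgeR's quasi-likelihood test). As a fold this is 0.488, with a 95% interval of 0.369 to 0.646. An IP that lies wholly below the Input was seen for 23.7% of all tested genes and for 27.9% of the abundant ones. Among abundant genes, 15.4% had a log2 fold change as low as that of *Tnfrsf18* or lower. The call held in each of the 16 other settings tried, with adjusted p-values of 5.05e-07 to 0.0453.

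*Tnfrsf1b* and *Tnfrsf9* lay lower in the IP on average but did not pass the test. *Tnfrsf1b*, the TNFR2 mRNA, had 463, 613 and 500 CPM in the IP libraries, against 604, 908 and 754 CPM in the Input libraries. The groups touched at a single point, where IP replicate 2 exceeded Input replicate 1. Its log2 change was -0.52 ± 0.18 (SE; adjusted p = 0.102, edgeR), with a 95% interval for the fold of 0.524 to 0.923 before adjustment for the number of genes. *Tnfrsf9*, the 4-1BB mRNA, had 282, 556 and 447 CPM in the IP libraries, against 541, 810 and 716 CPM in the Input libraries. Here too only IP replicate 2 exceeded an Input library, replicate 1. Its log2 change was -0.69 ± 0.25 (SE; adjusted p = 0.117, edgeR). Each of these genes passed the threshold in 4 of the 16 other settings, with adjusted p-values of 0.00361 to 0.337 for *Tnfrsf1b* and of 0.000207 to 0.286 for *Tnfrsf9* over the 16.

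*Tnfrsf4*, the OX40 mRNA, had 292, 644 and 684 CPM in the IP libraries, against 564, 932 and 808 CPM in the Input libraries. The first IP value lay below the Input range and the other IP libraries lay within it. *Tnfrsf4* differed by -0.51 ± 0.31 on the log2 scale (SE; adjusted p = 0.380, edgeR), and by -0.25 without IP replicate 1. It passed the threshold in 2 of the 16 other settings, with adjusted p-values of 0.0128 to 0.689 over the 16. *Tnfrsf1a*, the TNFR1 mRNA, had 24.0, 12.5 and 6.41 CPM in the IP libraries, against 25.0, 15.6 and 14.5 CPM in the Input libraries. One IP library lay within the Input range and the other IP libraries below it, with a coefficient of variation of 62.5% in the IP, where counting error alone gives about 9.33%. The log2 difference of -0.36 ± 0.66 (SE; adjusted p = 0.835, edgeR) had a 95% interval for the fold of 0.277 to 2.19. It was -0.04 without IP replicate 3 and -1.01 without IP replicate 1. A change of 2-fold in either direction was therefore not detectable for *Tnfrsf1a* at this depth and spread.

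Of the adaptors, *Traf1* was the one enriched. It had 654, 919 and 866 CPM in the IP libraries, against 358, 494 and 399 CPM in the Input libraries. Every IP library lay above every Input library, and the lowest IP value was 654 CPM where the highest Input value was 494 CPM. *Traf1* also had more reads in each IP library, 5584 to 7296, than in any Input library, 4602 to 4970. The IP libraries were smaller in gene-assigned reads but not in all reads. These numbered 27021435 to 34052273 in the IP and 26665143 to 36717111 in the Input. The level averaged 813 ± 141 CPM in the IP and 417 ± 69.5 CPM in the Input (SD, n = 3 each). This is a log2 change of 0.96 ± 0.18 (SE; adjusted p = 0.00897, edgeR), and the fold had a 95% interval of 1.47 to 2.58. An IP wholly above the Input was seen for 12.8% of all tested genes and for 35.4% of the abundant ones. Among abundant genes *Traf1* stood at percentile 89.3 of the log2 fold change. Enrichment kept its direction in all 16 other settings and passed the threshold in 13. The call was lost with library sizes taken from all reads (adjusted p = 0.138), without Input replicate 3 (0.0635), and without both libraries numbered 1 (0.0717).

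*Traf5* had a fold change of similar size with a wider spread. It had 148, 64.3 and 67.4 CPM in the IP libraries, against 54.9, 40.2 and 48.9 CPM in the Input libraries. All IP libraries lay above all Input libraries, and IP replicate 1 had more than 2 times the level of the other IP libraries. Its log2 change was 0.96 ± 0.36 (SE; adjusted p = 0.131, edgeR), with a 95% interval for the fold of 1.11 to 3.41 before adjustment for the number of genes. Without IP replicate 1 the log2 fold change was 0.41. *Traf5* passed the threshold in 0 of the 16 other settings, with 0.0567 as the lowest adjusted p, and its direction was the same in all of them. Its unadjusted p was 0.0249.

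*Traf2* and *Traf6* lay close to the middle of the tested genes. *Traf2*, whose protein is the heteromer partner of TRAF1, had 86.0, 82.8 and 29.3 CPM in the IP libraries, against 70.6, 57.0 and 84.0 CPM in the Input libraries. IP replicate 3 stood apart from the other IP libraries, which lay near or above the top of the Input range. *Traf2* differed by -0.10 ± 0.40 on the log2 scale (SE; adjusted p = 0.933, edgeR), and by 0.23 without IP replicate 3. *Traf6* had 97.4, 53.3 and 57.0 CPM in the IP libraries, against 66.3, 64.7 and 43.8 CPM in the Input libraries. The groups overlapped, with IP replicate 1 above all other libraries. *Traf6* differed by 0.25 ± 0.32 on the log2 scale (SE; adjusted p = 0.751, edgeR), with a 95% interval for the fold of 0.717 to 1.97.

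**Figure D2:**
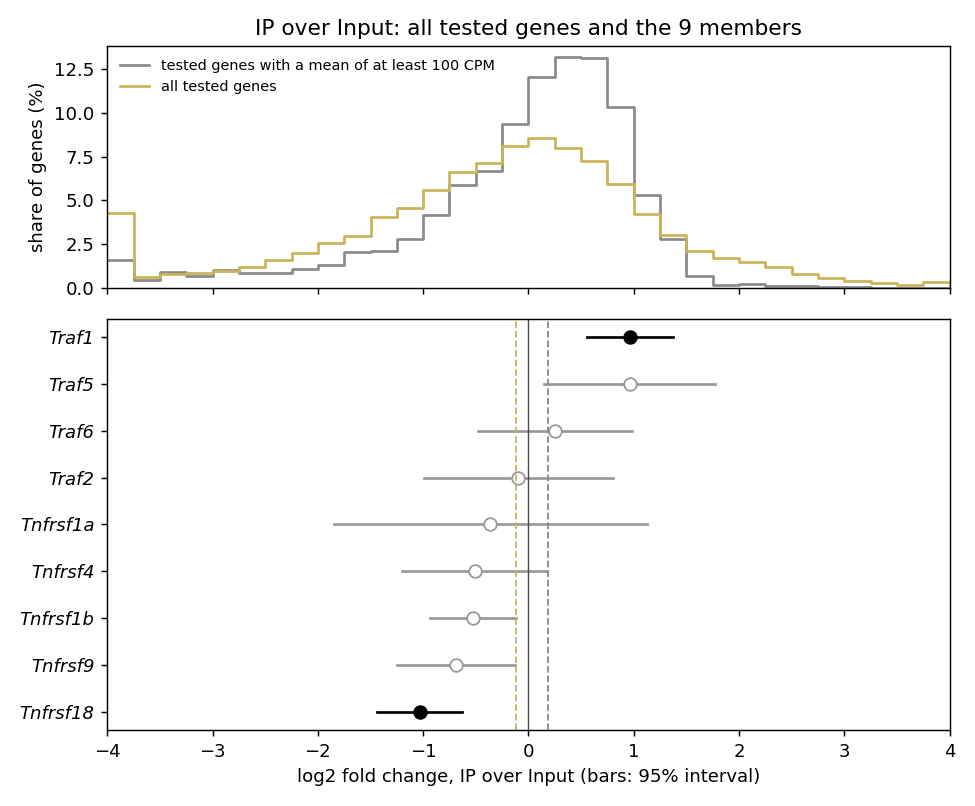
Upper panel: share of genes in percent by log2 fold change of IP over Input, in bins of 0.25, for all 15615 tested genes and for the 2151 abundant genes (averaging 100 CPM or more); the outermost bins also hold the values beyond the axis. Lower panel: log2 fold change of each member with its 95% interval, filled where the adjusted p was under 0.05, and dashed lines at the medians of these gene sets, -0.12 and 0.18. *Traf1* at 0.96 and *Tnfrsf18* at -1.03 are the filled points.

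A fold change of IP over Input is relative to how the libraries are scaled, so the members were also placed against the other genes of the same fit. The median log2 fold change was -0.12 over all tested genes and 0.18 over the abundant genes. For the 9 members it was -0.36, with -0.52 for the 5 receptors and 0.60 for the 4 adaptors. Relative to the median of all tested genes, *Traf1* stood at 1.08, *Traf5* at 1.08, *Traf6* at 0.37 and *Traf2* at 0.02. On the same scale *Tnfrsf1a* stood at -0.24, *Tnfrsf4* at -0.39, *Tnfrsf1b* at -0.40, *Tnfrsf9* at -0.57 and *Tnfrsf18* at -0.91.

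The order from *Traf1* down to *Tnfrsf18* was mostly unresolved between neighbours. The ratio of reads of one member to reads of another within a library does not depend on any library scaling. Among the 8 neighbouring pairs in the order of fold change, this ratio separated the IP from the Input libraries for 1, *Traf5* over *Traf6*. Of all 36 pairs of members, 12 separated the groups, and 10 of these paired a receptor with an adaptor, out of 20 such pairs. In each of the 10 the adaptor gained on the receptor in the IP. *Traf1* gained on *Tnfrsf1b*, *Tnfrsf4*, *Tnfrsf9* and *Tnfrsf18*. *Traf5* gained on all 5 receptors, and *Traf6* gained on *Tnfrsf18*. Among the 10 pairs of receptors 1 separated the groups, *Tnfrsf1b* over *Tnfrsf18*. Pairs share members and are not independent, so these counts carry no test. The share among pairs of other genes was not computed, so the counts are not read as a result about the family.

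The same ratio was also taken for each member against every other tested gene. These shares were not computed for genes outside the family, so there is no value for a typical gene to set beside them. In the IP libraries *Traf1* gained, without overlap, on 45.0% of the other tested genes and on 58.0% of the abundant ones, and it lost on 1.66% and 1.53%. *Traf5* gained on 39.9% and 43.2% and lost on 1.58% and 0.651%. *Traf6* gained on 24.6% and 24.4% and lost on 5.96% and 9.62%. *Traf2* gained on 18.1% and lost on 9.93% of the other tested genes, but against the abundant ones it gained on 12.6% and lost on 22.0%. *Tnfrsf18* lost on 29.3% of the other tested genes and on 67.0% of the abundant ones, and gained on 9.67% and 10.4%. The other receptors showed wider losses against abundant genes than against all tested genes. The abundant genes also had the higher median log2 fold change, 0.18 against -0.12. *Tnfrsf9* lost on 20.2% of all and 50.2% of the abundant genes and gained on 10.9% and 11.4%. *Tnfrsf1b* lost on 19.0% and 49.3% and gained on 14.2% and 15.2%, and *Tnfrsf4* lost on 14.2% and 32.9% and gained on 10.8% and 10.1%. *Tnfrsf1a* lost on 11.7% and gained on 12.5% of all other tested genes, and lost on 23.1% and gained on 7.90% of the abundant ones.

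For 3 pairs picked by role, the difference of the log2 ratio between IP and Input was tested with an exact two-sided permutation test, whose smallest possible p for 3 against 3 libraries is 0.1. For the TNF receptors, reads of *Tnfrsf1b* over reads of *Tnfrsf1a* were 19.2, 48.8 and 77.2 in the IP libraries and 24.1, 58.0 and 51.9 in the Input libraries. Both groups had a mean log2 ratio of 5.38, with an SE of 0.71 for the difference, and the exact permutation test gave p = 1 (adjusted over the 3 pairs, 1). A difference of 2-fold was not detectable here. *Traf1* over *Traf2* was 7.60, 11.1 and 29.5 in the IP libraries and 5.08, 8.66 and 4.75 in the Input libraries. In log2 terms the difference was 1.19 ± 0.64 (SE), with an exact permutation p of 0.2 and an adjusted p of 0.6. It was 0.63 without IP replicate 3 and 1.61 without IP replicate 1. *Tnfrsf4* over *Tnfrsf18*, which lie close together on chromosome 4, was 1.32, 2.99 and 2.67 in the IP libraries and 1.52, 1.82 and 1.51 in the Input libraries. The log2 difference was 0.44 ± 0.38 (SE), with an exact permutation p of 0.4 and an adjusted p of 0.6. It was 0.22 without IP replicate 2 and 0.81 without IP replicate 1. IP replicate 1 lay below all Input libraries in this ratio, whereas the other IP libraries lay above them.

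Reads within the family were divided differently in the IP, with a smaller share on receptors. The 5 receptors took 62.0% ± 4.76 of the members' reads in the IP and 81.8% ± 2.15 in the Input (SD, n = 3 each). The highest IP library, at 65.0%, lay below the lowest Input library, at 79.3%. Counting error is small beside this, with a Wilson 95% interval of 64.4% to 65.6% for that IP library and of 78.9% to 79.7% for that Input library, for counting error only. *Traf1* alone took 29.2% ± 0.469 of the members' reads in the IP and 12.7% ± 0.905 in the Input (SD, n = 3 each). Without *Traf1* the receptors took 87.7% ± 7.15 in the IP and 93.6% ± 1.80 in the Input (SD, n = 3 each), and the groups overlapped. Of all gene-assigned reads, the adaptors took 0.108% ± 0.00714 in the IP and 0.0563% ± 0.00513 in the Input (SD, n = 3 each). Most of these adaptor reads were from *Traf1*, 77.8% ± 10.0 in the IP and 69.9% ± 5.11 in the Input (SD, n = 3 each). The receptors took 0.180% ± 0.0439 of all gene-assigned reads in the IP and 0.257% ± 0.0523 in the Input (SD, n = 3 each), with overlapping libraries. As these sums run over chosen members, no test was made on them.

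**Figure D3:**
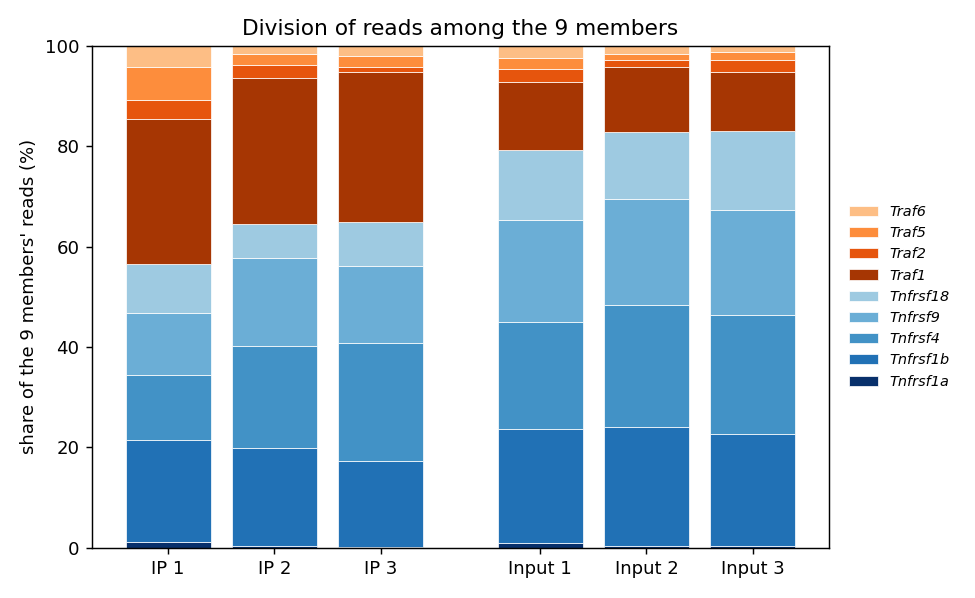
Share in percent of the reads of all 9 members that each member took, for the 3 YTHDF2 IP libraries (left) and the 3 Input libraries (right); receptors are blue and adaptors orange. The *Traf1* band holds 28.8% to 29.8% of an IP bar and 11.7% to 13.5% of an Input bar.

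Several members were the lowest or the highest of their group in the IP and Input libraries of the same number. The libraries numbered 1 were the lowest of their group, in both the IP and the Input, for *Tnfrsf1b*, *Tnfrsf4*, *Tnfrsf9* and *Traf1*. They were the highest of their group in both for *Tnfrsf1a*, *Traf5* and *Traf6*, which makes 7 of 9 members. For number 2 there were 4 such members and for number 3 there were 2. The share of all tested genes with such a match was not computed, so these counts are not read as a result about the members. Over all tested genes, deviations of the libraries numbered 1 from their group means correlated at 0.115. The labels do not say whether equal numbers share a lysate or a batch, and the part of the number in the results was not tested beyond leaving libraries out and a fit with the number as a block. Without both libraries numbered 1, an alternative chosen after these values were seen, the log2 fold change was -1.18 for *Tnfrsf18* (adjusted p = 0.0453 in edgeR's test) and 0.97 for *Traf1* (adjusted p = 0.0717). The same fit gave 0.54 for *Traf5* and -0.42 for *Tnfrsf4*.

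The spread between IP libraries exceeded counting error for every member. The median coefficient of variation of the 9 members came to 35.4% in the IP libraries and 19.8% in the Input libraries, against 20.3% and 10.4% for abundant genes and 67.3% and 25.4% for all tested genes. *Tnfrsf18* at 9.39%, *Tnfrsf1b* at 14.9% and *Traf1* at 17.3% varied least in the IP. *Tnfrsf1a*, *Traf5* and *Traf2* varied most, at 62.5%, 50.9% and 48.2%.

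**Figure D4:**
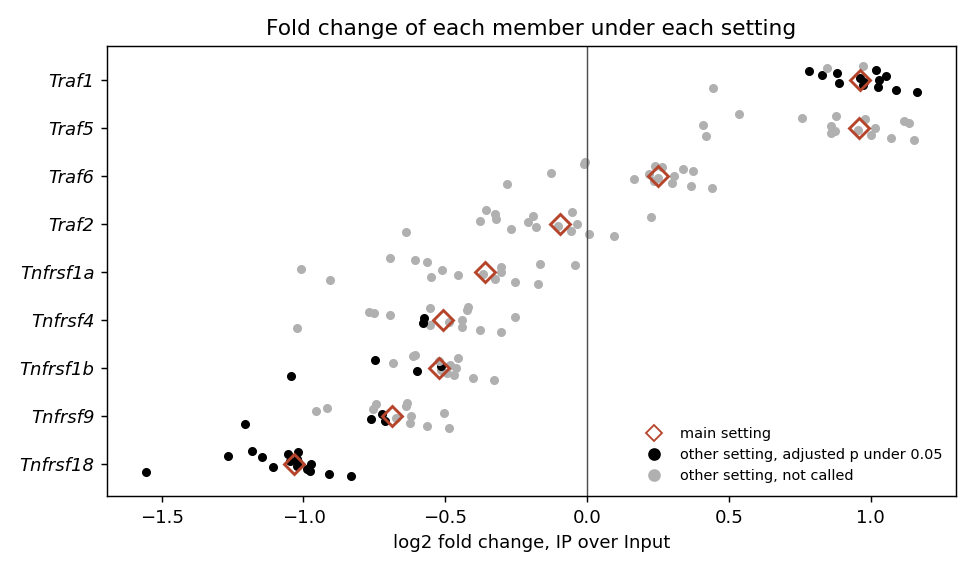
Log2 fold change of IP over Input for each member as reported (open diamonds) and in 16 other settings (dots), black where the adjusted p was under 0.05. *Tnfrsf18* has 16 black dots between -1.56 and -0.83, *Traf1* has 13 among dots between 0.44 and 1.16, and *Traf2* and *Traf6* have dots on both sides of 0.

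By rule the gene to match was the member with the highest CPM averaged over all 6 libraries, *Tnfrsf4*, a choice made without correction for length and not a comparison of levels. Of 8660 other genes averaging 10 CPM or more, the IDs whose log2 CPM over the 6 libraries was most like that of *Tnfrsf4* were ENSMUSG00000026009.14 (Pearson's r = 0.981) and ENSMUSG00000029408.13 (r = 0.976). Among the members the most alike was *Tnfrsf9* (r = 0.936) and the most opposed was *Traf5* (r = -0.953). These correlations run over 6 libraries whose groups differ in the number of gene-assigned reads, and any difference between the groups enters them. The libraries numbered 1 were also the lowest of their group for *Tnfrsf4* and the highest for *Traf5*. The correlations carry no test.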

How the data were processed

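RIP-seq libraries of 3 YTHDF2 IP and 3 Input samples were used. Each deposited file holds raw read counts by Ensembl gene ID. Tools named by the submitters' processing notes are HTSeq, DESeq2, HISAT2 2.1.0 and Trimmomatic 0.39, with build mm10, in no stated order. Annotation release, strand setting and duplicate handling: not given in the sources used here. Spike-in IDs and the summary categories of the counter were left out. Member names came with their IDs. Positions came from RefSeq by symbol (9 of 9 matched). None of its 49997 rows held an Ensembl ID, so the lists of other pathway genes and of cell type markers could not be applied.

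Counts were tested in R 4.3.3 by the robust quasi-likelihood F-test of edgeR 4.0.16 (two-sided, group as the only term, TMM factors, genes kept by filterByExpr), and p-values were adjusted over all tested genes. SEs and 95% intervals were derived from the F statistics and their degrees of freedom. Ratios between members had 0.5 reads added to each count. All 9 members are named by rule. The 2 most alike IDs were taken by correlation with the most abundant member. The members, lists and tests were chosen with earlier results of these data known. Replicates differed beyond sampling noise, and more so in the IP. Chi-square per degree of freedom was 16.1 to 21.85 between Input libraries and 37.1 to 64.25 between IP libraries. Alternatives were other size factors, filters and tools (limma 3.58.1, DESeq2 1.42.0), a replicate block, and single libraries left out.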

Additional observations from a re-analysis of the deposited data

Results flagged for a closer look

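Reads that fell in no annotated feature were 71.7% of all reads in the IP and 50.4% in the Input, as means of 3 libraries each. The value stands here because these reads lie outside the gene counts and their share is higher in the IP than in the Input. They enter the member results through one alternative, library sizes from all reads, under which *Traf1* was not called enriched (log2 fold change 0.44).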

How the results depend on the processing

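*Tnfrsf18* kept its call in all 16 other settings. The number of members called was 5 without a filter beyond 1 read and 5 with a replicate block, against 2; over all genes these settings called 729 enriched and 1319 depleted (5.11% of those tested) and 833 and 1095 (12.3%), against 10.4%. In both, 4 receptors were depleted: *Tnfrsf1b*, *Tnfrsf4*, *Tnfrsf9* and *Tnfrsf18*. The 5 members called in both were the abundant ones, and the share of abundant genes called was not computed for these settings. With limma voom 2 members were depleted, and with library sizes from all reads 3 were depleted and 0 enriched. Without both libraries numbered 1, 1 member was called in all and 0 were enriched. Leaving out 1 library gave 1 to 3 calls, 0 to 1 enriched and 1 to 2 depleted; the enriched call was lost without Input replicate 3, and the second depleted member, without Input replicate 1, was *Tnfrsf1b*. Among all tested genes, 676 enriched in the main setting became 1081 with upper quartile factors, 160 with all reads, 1259 with DESeq2, 1030 with 1 CPM in all libraries and 73 without both libraries numbered 1. The 954 depleted became 1958 with all reads, 1551 with DESeq2, 1715 with limma voom and 228 without both libraries numbered 1. Leaving out 1 library gave 188 to 999 enriched and 563 to 1661 depleted. The log2 fold change of *Traf2* turned to 0.10 under upper quartile factors and 0.0059 under total counts, and ranged from -0.38 to 0.23 with 1 library left out. That of *Traf6* turned to -0.28 with all reads and -0.0062 without both libraries numbered 1, and ranged from -0.13 to 0.37 with 1 library left out. The difference for *Tnfrsf1b* over *Tnfrsf1a* was near 0 and ranged from -0.44 to 0.56 with 1 library left out, with 0.16 without both libraries numbered 1. For all of these the cause was not tested; fits on fewer libraries also have fewer samples. Of all calls 41.5% were enriched in the main setting, against 57.4% with upper quartile factors, 51.8% with total counts and 7.55% with all reads. The median over genes of the per-gene difference from the main log2 fold change was 0.20, 0.11 and -0.53 in the last 3, -0.15 with limma voom, -0.14 with the block and 0.11 without IP replicate 3. The median log2 fold change itself was -0.57 with limma voom and -0.50 with the block, against -0.12. The libraries were treated as unpaired because the labels do not say that equal numbers share a lysate. Deviations of same-numbered libraries from their group means correlated at 0.115, 0.0332 and 0.0245 over tested genes. The best correlation of each library was with its own number. Whether the libraries are paired was not tested, and the block is given as the alternative. The ratio tests cannot reach a p under 0.1.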
